A study of Homo sapiens with 4 samples.

Results

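The genes described here are 10 members of the BCL2 family, BMF, BBC3, PMAIP1, BCL2L11, BIK, BID, BAX, BAK1, BCL2L1 and MCL1, in 2 cervical cancer lines after knockdown of the RNA helicase gene DDX24. They were chosen by symbol, as a family named for BMF and BBC3, with the knockdown folds already known. BMF was chosen because it was lower in both lines, so the knockdown folds are given as a description, with no test. All 10 members were listed in both tables, among 12189 genes used for SiHa and 12036 for MS751. SiHa and MS751 are established lines of cervical squamous cell carcinoma, grown in medium with 10% serum. Cells of each line received a control siRNA (siControl, genotype labelled WT) or siDDX24-1, an siRNA against DDX24 (labelled DDX24 knockdown), and RNA was taken on day 2. Each of the 4 groups held 1 library, so no difference within a line has a replicate check. The labels name 1 siRNA against DDX24, so that loss of DDX24 and other effects of that siRNA cannot be told apart.

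BCL2 proteins decide whether the outer mitochondrial membrane is opened, the step that releases cytochrome c and starts the caspases of the intrinsic apoptosis pathway. The effectors BAX and BAK1 form the pore, the guardians BCL2L1 and MCL1 hold the effectors and their activators in check, and BH3-only proteins sense damage or loss of attachment and either bind the guardians or engage the effectors directly. BH3-only members are controlled in part through transcription and in part at the protein, as by the cleavage of BID, so RNA counts alone do not give their activity.

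The sequence that the members share is the core of the BH3 motif, the short helix through which they bind each other. It is shown because it is the part that the 10 proteins share. A search of the coding sequence of the GENCODE release 29 principal transcript of each member for 6 codons of the BH3 core pattern found 1 match per gene, on GRCh38. The match begins at codon 137 of 184 in BMF, 141 of 193 in BBC3, 29 of 54 in PMAIP1 and 213 of 350 in MCL1. The lines below give each match in capitals with 3 codons on either side.
BMF: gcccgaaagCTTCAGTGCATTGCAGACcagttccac
BBC3: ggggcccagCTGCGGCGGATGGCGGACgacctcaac
PMAIP1: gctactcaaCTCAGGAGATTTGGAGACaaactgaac
BCL2L11: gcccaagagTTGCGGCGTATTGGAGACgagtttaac
BIK: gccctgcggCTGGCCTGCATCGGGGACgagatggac
BID: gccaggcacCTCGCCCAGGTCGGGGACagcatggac
BAX: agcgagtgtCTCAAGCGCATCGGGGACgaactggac
BAK1: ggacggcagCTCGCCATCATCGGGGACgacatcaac
BCL2L1: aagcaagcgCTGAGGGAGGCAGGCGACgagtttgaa
MCL1: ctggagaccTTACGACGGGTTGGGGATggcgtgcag
The fifth codon of the core is of the form GCN in BMF and BBC3 and GGN in the other 8 members. The core of BMF lies at chr15:40104207-40104224 and that of BBC3 at chr19:47226591-47226608, both on the minus strand.

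The listed genes summed to 17707551 counts in the SiHa control and 20117442 in the SiHa knockdown library, and to 13160487 and 14664797 in MS751. A gene entered a table where it exceeded 1 CPM (its counts scaled to the library total) in both libraries of its line, so a member switched off fully could not have been listed. DDX24 itself went from 3464 to 575 counts in SiHa (log2 fold -2.71) and from 2072 to 993 in MS751 (log2 fold -1.20), where the reduction was smaller. Its exons overlap those of OTUB2. Of 11 markers of squamous or simple epithelium 6 appear for SiHa and 4 for MS751. KRT17 stood at 999 and 875 CPM in SiHa (siControl first) and CDH1 at 74.4 and 44.3 CPM, and neither was listed for MS751. DSP stood at 124 and 140 CPM in SiHa and at 166 and 163 CPM in MS751. KRT8, KRT18 and EPCAM were listed in both lines. The squamous markers KRT5, KRT14, KRT6A, TP63 and DSG3 were listed in neither line. Of 15 markers of leukocytes, endothelium and fibroblasts 5 appear for SiHa and 4 for MS751, with CD14 at 213 and 235 CPM in SiHa COL3A1 at 362 and 476 CPM in MS751 and COL1A1 at 16.9 and 7.57 CPM in SiHa and 86.2 and 23.7 CPM in MS751 (siControl first). The part of other cells in the results was not tested. In RNA from whole cultures, fewer cells of a kind and less RNA per cell cannot be told apart.

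BMF (ENSG00000104081, chr15:40087890-40108892 on the minus strand of GRCh38), a BH3-only gene whose protein is tethered to the cytoskeleton through a dynein light chain and is known for killing detached epithelial cells, had the lowest fold of the family in both lines. The SiHa control library held 166 BMF counts (9.18 CPM) and the knockdown library 26 (1.32 CPM). This is 6.72-fold lower, a log2 fold of -2.75 (95% counting interval -3.45 to -2.20). The MS751 control library held 494 (37.4 CPM) and the knockdown library 100 (6.85 CPM). This is 5.41-fold lower, a log2 fold of -2.44 (95% counting interval -2.77 to -2.13). With all 4 libraries scaled together, the MS751 knockdown library held 6.795 CPM of BMF, below the 9.832 CPM of the SiHa control library. The 26 counts in SiHa lie close to the lowest count listed for that library, 21, so that the entry rule of the table allowed little more of a drop. Genes with a fold as low or lower made up 0.0738% of the SiHa genes and 0.49% of the MS751 genes. Of the 11112 genes in both tables, 2 had folds at or below those of BMF in both lines, BMF itself and RAB43, which was singled out after its values were seen and whose exons overlap ISY1-RAB43. Exons of BMF overlap the antisense gene BMF-AS1, and the sources used here do not say whether counting used the strand. The same holds for BCL2L1 and its antisense gene ABALON, BCL2L11 and MIR4435-2HG, and BAK1 and GGNBP1.

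BBC3 (ENSG00000105327, chr19:47220822-47232766, minus strand), which encodes PUMA, a BH3-only protein that binds every guardian, had lower counts with siDDX24-1 in both lines, by a larger factor in MS751. SiHa gave 176 counts (9.73 CPM) in the control and 112 (5.69 CPM) in the knockdown library, a log2 fold of -0.77 (95% counting interval -1.13 to -0.42). MS751 gave 396 (30.0 CPM) and 110 (7.54 CPM), a log2 fold of -1.98 (95% counting interval -2.31 to -1.68). The counting intervals of the lines do not overlap, and the difference between lines was not tested. BBC3 has the most GC-rich transcripts of the family (64.5%), and GC-rich genes had lower folds in both lines. Once a smooth trend of the fold on GC content was removed, its folds were -0.50 and -1.46.

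PMAIP1, which encodes NOXA, a BH3-only protein that binds MCL1, had 540 and 449 counts in SiHa (siControl first), a log2 fold of -0.39 (95% counting interval -0.57 to -0.21). The MS751 counts were 298 and 177, a log2 fold of -0.89 (95% counting interval -1.17 to -0.62). Its transcripts are poor in GC (43.6%), and with the GC trend removed the MS751 fold was -1.10, past 2-fold. BMF, BBC3 and PMAIP1 had the 3 lowest folds of the family in MS751.

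None of the remaining BH3-only genes was past 2-fold. BCL2L11, which encodes BIM, the activator opposed by growth factor signalling, went the other way in SiHa, from 326 to 505 counts, a log2 fold of 0.51 (95% counting interval 0.30 to 0.71). Its MS751 counts were 159 and 177, a log2 fold of 0.012 (95% counting interval -0.31 to 0.33), which became -0.14 with the GC trend removed and -0.0013 with library totals. BIK, whose protein sits at the endoplasmic reticulum, had 184 and 159 counts in SiHa (log2 fold -0.33, 95% counting interval -0.65 to -0.019) and 58 and 47 in MS751 (log2 fold -0.44, 95% counting interval -1.03 to 0.13). BIK in MS751 had the fewest counts after BMF in SiHa, and its interval spans 0. BID, which caspase 8 cleaves to link death receptors to mitochondria, had 602 and 554 counts in SiHa (log2 fold -0.24) and 711 and 732 in MS751 (log2 fold -0.10, 95% counting interval -0.25 to 0.050).

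Of the pore-forming effectors, BAX went from 1877 counts in the SiHa control to 1437 in the knockdown library, a log2 fold of -0.51 (95% counting interval -0.61 to -0.41). In MS751 BAX had 645 and 639 counts, a log2 fold of -0.16 (95% counting interval -0.32 to 0.0036), which turned to 0.16 with the GC trend removed. BAK1 had 466 and 465 counts in SiHa, a log2 fold of -0.13 (95% counting interval -0.31 to 0.063), which turned to 0.015 with the GC trend removed. In MS751 BAK1 had 534 and 694 counts, a log2 fold of 0.23 (95% counting interval 0.070 to 0.40) and 0.48 with the GC trend removed.

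The guardians had folds of opposite sign. BCL2L1 (ENSG00000171552, chr20:31664452-31723989, minus strand), which encodes BCL-XL, had 2735 and 3511 counts in SiHa, a log2 fold of 0.24 (95% counting interval 0.17 to 0.31). MS751 gave 464 and 747, a log2 fold of 0.54 (95% counting interval 0.37 to 0.71). BCL2L1 is the member whose counting interval lay above 0 in both lines. MCL1, a short-lived guardian, had 9615 and 7764 counts in SiHa, a log2 fold of -0.43 (95% counting interval -0.47 to -0.39). The MS751 libraries held 5841 and 5377, a log2 fold of -0.26 (95% counting interval -0.32 to -0.21).

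**Figure D1:**
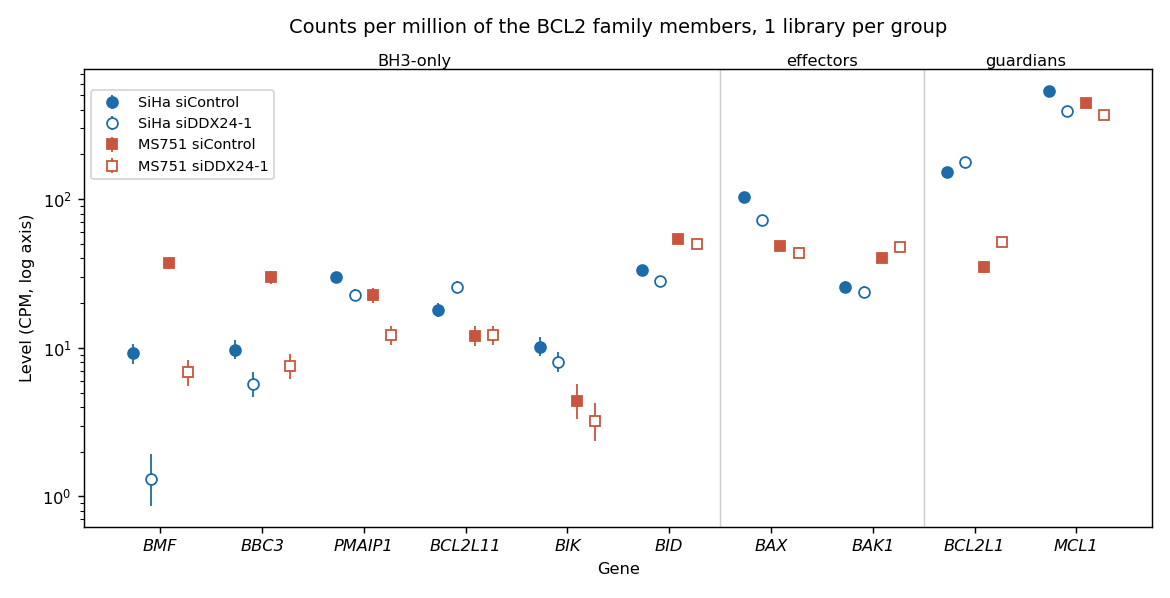
Level of each member in CPM (log axis) in the 4 libraries, with exact Poisson 95% intervals as bars that cover counting error at most. BMF is at 9.18 and 1.32 CPM in SiHa and at 37.4 and 6.85 CPM in MS751 (siControl first), and MCL1 lies above the other members in each library.

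**Figure D2:**
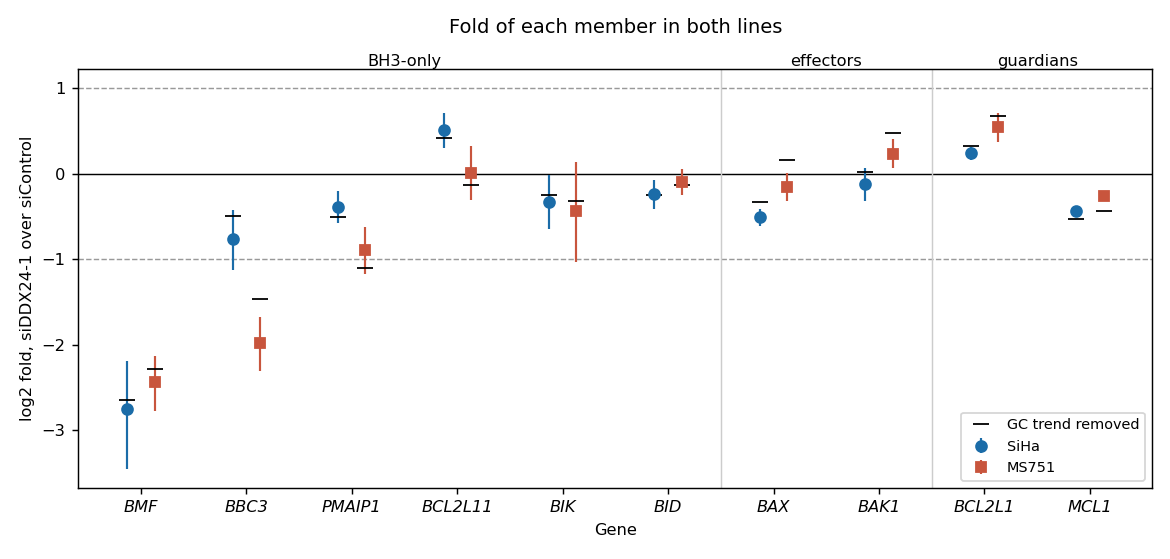
Log2 fold of each member, siDDX24-1 over siControl, with 95% counting intervals as bars, dashed lines at 2-fold and black dashes for the fold with the GC trend removed. BMF lies below the dashed line in both lines and BBC3 in MS751, and BCL2L1 lies above 0 in both.

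Counted over the family, 1 of 10 members was at least 2-fold lower in SiHa (BMF) and 2 of 10 in MS751 (BMF and BBC3), and none was 2-fold higher in either line. Over all genes, 3.05% were at least 2-fold lower in SiHa and 8.55% in MS751, and 1.46% and 3.74% were 2-fold higher. In both lines at once, 1 member and 0.9% of the 11112 shared genes were 2-fold lower. Since the members were chosen with these folds known, nothing is read from the counts. In SiHa 7 members had counting intervals below 0 and 2 above 0, beside 30% and 30.2% of all genes, and in MS751 4 and 2, beside 36.1% and 36.4%. Folds of opposite sign in the 2 lines, with both counting intervals off 0, were seen for 0 of 10 members and for 12.2% of the shared genes. The median fold of the members was -0.36 in SiHa and -0.21 in MS751, and that of all genes was within 0.01 of 0 in both. Across all genes the fold had a Spearman's rho with transcript GC content of -0.34 in SiHa and -0.38 in MS751, where genes are not independent replicates. The median GC content of the members was 56.1%, against 49.3% and 49.4% of the genes of each line. The part of GC content in the folds was not tested beyond the values with the trend removed.

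Scaled by exon length (RPKM, CPM divided by exon length in kilobases, on GENCODE exons), MCL1 was the most abundant member in each library, at 122 and 90.2 RPKM in SiHa and 101 and 84.3 in MS751. It made up 47.1% and 42.2% of the summed level of the 10 members in SiHa and 52.2% and 51.5% in MS751. BMF was the least abundant member in both SiHa libraries (1.69 and 0.242 RPKM) and in the MS751 knockdown library (1.26 RPKM), while in MS751 siControl BCL2L11 was lower (1.81 RPKM against 6.86 for BMF). The 6 BH3-only genes together made up 15.1% of the summed level in SiHa siControl and 14.5% in SiHa siDDX24-1. In MS751 their share was 23.2% with siControl and 15.6% with siDDX24-1. The share of the guardians was 64.8% and 67.4% in SiHa and 57.7% and 60.9% in MS751. All these shares draw on BMF and BBC3, whose folds were known when the family was chosen, so nothing is read from their changes. In MS751 BMF went from 6.86 to 1.26 RPKM and BBC3 from 9.42 to 2.37. PMAIP1, BIK and BID were lower there too, and BCL2L11 was not.

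Ratios between members within a library do not depend on scaling between libraries, though they do on the GC trend. The ratio of BAX to BCL2L1 counts was 0.686 with siControl and 0.409 with siDDX24-1 in SiHa, and 1.39 and 0.855 in MS751. This is a change to 0.596 of the control ratio in SiHa (95% counting interval 0.547 to 0.650) and to 0.615 in MS751 (95% counting interval 0.523 to 0.724), of like size in both lines. The ratio of BMF to BCL2L1 changed to 0.122 of its control value in SiHa (95% counting interval 0.0772 to 0.186) and to 0.126 in MS751 (95% counting interval 0.0975 to 0.161). For BBC3 over BCL2L1 the change was to 0.496 in SiHa and 0.173 in MS751, with intervals of 0.386 to 0.635 and 0.134 to 0.221 that do not overlap. Between the guardians, the ratio of BCL2L1 to MCL1 changed from 0.285 to 0.452 in SiHa (1.59-fold, 95% counting interval 1.499 to 1.69) and from 0.0794 to 0.139 in MS751 (1.75-fold, 95% counting interval 1.55 to 1.98). The ratio of BAX to MCL1 changed to 0.948 of its control value in SiHa and 1.08 in MS751, with intervals that include 1 (0.879 to 1.02 and 0.957 to 1.21). With the GC trend removed the BAX to MCL1 changes were 1.15 and 1.51, which turns the direction in SiHa, while those of BAX to BCL2L1 were 0.636 and 0.701. BCL2L11 over MCL1 rose to 1.92 in SiHa (95% counting interval 1.66 to 2.22) and was 1.21 in MS751 (95% counting interval 0.967 to 1.51). BBC3 over MCL1 changed to 0.788 in SiHa, with an interval that includes 1 (0.615 to 1.01), and to 0.302 in MS751. With the GC trend removed these BBC3 values were 1.02 and 0.49. BMF over MCL1 changed to 0.194 and 0.22, and BAK1 over BCL2L1 to 0.777 and 0.807 (SiHa first). All these pairs were chosen after the counts were seen and carry no test.

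**Figure D3:**
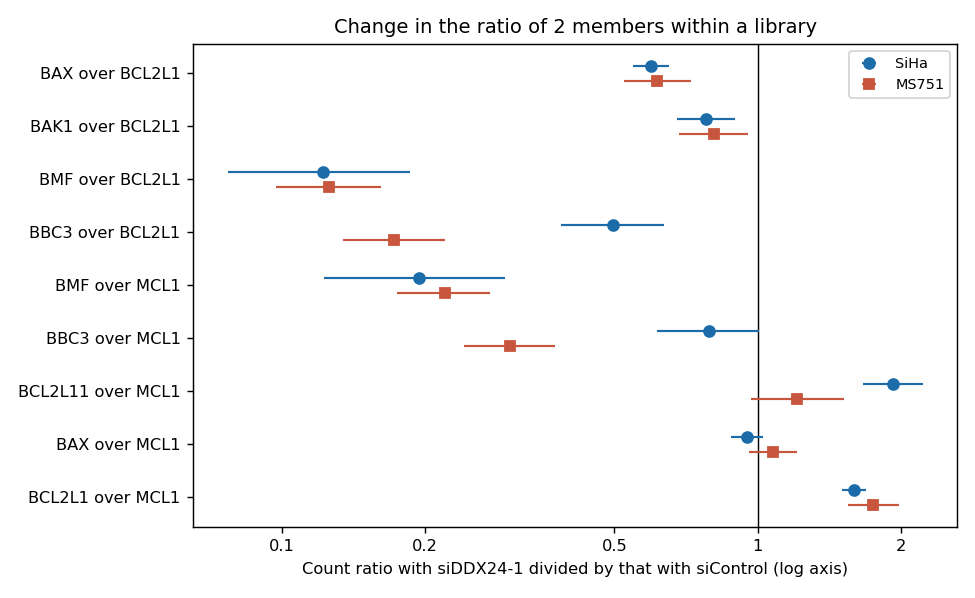
Change in the count ratio of pairs of members within a library, siDDX24-1 divided by siControl (log axis), with exact conditional 95% intervals as bars that cover counting error at most. BAX over BCL2L1 lies at 0.596 in SiHa and 0.615 in MS751, and BMF over BCL2L1 at 0.122 and 0.126.

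The lines were also compared with each other, a contrast that the choice of members did not use. The test was edgeR's quasi-likelihood test over all 4 libraries with treatment as a block, adjusted by Benjamini-Hochberg over the 11112 shared genes. The libraries of a line differ in treatment and nothing says that they came from separate cultures, so each p-value speaks of the spread among these libraries, which may be technical. With 1 residual degree of freedom per gene, a gene's own part of the spread in this fit is the difference between the knockdown folds of the lines. The test draws that part toward a trend over all genes, so the SE rests largely on other genes. For BMF the gene's own part draws on the folds that chose the gene. The family is also named for BBC3, whose folds were known. The differences of BMF and BBC3 are therefore given with no test. Of the members other than BMF and BBC3, 5 passed an adjusted p of 0.05, 4 higher in SiHa and 1 higher in MS751, beside 35.5% of all genes (17.9% and 17.6%).

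BCL2L1 was 4.13-fold higher in SiHa, a log2 difference of 2.05 (SE 0.218, adjusted p = 0.000489 by edgeR), at 2.19 in the siControl pair and 1.90 in the siDDX24-1 pair. BMF was 4.23-fold higher in MS751, a log2 difference (SiHa minus MS751) of -2.08, at -1.93 in the siControl pair and -2.22 in the siDDX24-1 pair. BAX was 2.01-fold higher in SiHa (log2 difference 1.01, SE 0.224, adjusted p = 0.0115 by edgeR), and BIK 2.57-fold higher in SiHa (log2 difference 1.36, SE 0.345, adjusted p = 0.0194 by edgeR). BCL2L11 was higher in SiHa (log2 difference 0.93, adjusted p = 0.0392 by edgeR) and BAK1 higher in MS751 (log2 difference -0.74, adjusted p = 0.0455 by edgeR). The BCL2L11 and BAK1 calls were lost with DESeq2 (adjusted p = 0.0607 and 0.067). Both were also lost without the treatment block (adjusted p = 0.072 and 0.0751 by edgeR). With edgeR on DESeq2 size factors 1 of these calls was lost. The ranges of adjusted p over 6 alternatives were 0.0364 to 0.072 and 0.043 to 0.0751. BCL2L1, BAX and BIK were called in each of the 6 alternatives. Their adjusted p ranged up to 0.00509, 0.0362 and 0.0462.

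The other tested members, BID, PMAIP1 and MCL1, did not pass. BID had a log2 difference of -0.67 (adjusted p = 0.0524 by edgeR), PMAIP1 0.75 (adjusted p = 0.0624 by edgeR) and MCL1 0.28 (SE 0.208, adjusted p = 0.332 by edgeR). BBC3, given with no test, had a log2 difference of -0.94, which joins -1.53 in the siControl pair and -0.30 in the siDDX24-1 pair. In the control libraries the lines therefore differed most in BCL2L1, BMF and BBC3, the first higher in SiHa and the others higher in MS751.

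**Figure D4:**
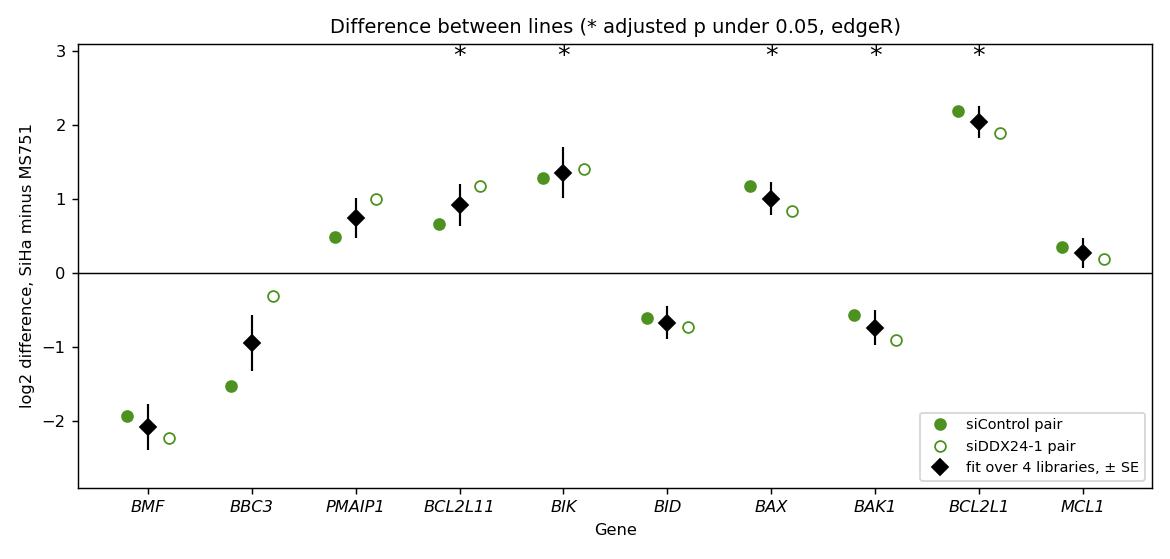
Log2 difference of each member between lines, SiHa minus MS751, as the fit over 4 libraries with its SE (diamonds) and in the siControl and siDDX24-1 pairs (circles). Stars mark an adjusted p under 0.05 (none is set for BMF and BBC3, which are given with no test). BCL2L1 lies highest at 2.05 and BMF lowest at -2.08, and the BBC3 pairs lie apart at -1.53 and -0.30.

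Upstream of the genes, the windows from 250 bases before to 50 bases after the RefSeq start sites of BMF and BBC3 (GRCh38.p14, minus strand) are shown because these members were lower together in MS751. Capitals mark GGGCGG, the GC box, CACGTG, the E-box bound by MYC and MAX, and GTAAACA, a forkhead core, searched on both strands. The first BMF window is chr15:40108830-40109129 and that of BBC3 chr19:47232618-47232917.
BMF: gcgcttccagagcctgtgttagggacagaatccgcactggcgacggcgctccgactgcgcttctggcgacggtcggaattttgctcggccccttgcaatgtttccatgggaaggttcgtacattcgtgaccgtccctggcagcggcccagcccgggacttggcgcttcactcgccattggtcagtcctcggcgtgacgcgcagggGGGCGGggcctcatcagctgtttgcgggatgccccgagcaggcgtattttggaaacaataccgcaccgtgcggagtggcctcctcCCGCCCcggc
BBC3: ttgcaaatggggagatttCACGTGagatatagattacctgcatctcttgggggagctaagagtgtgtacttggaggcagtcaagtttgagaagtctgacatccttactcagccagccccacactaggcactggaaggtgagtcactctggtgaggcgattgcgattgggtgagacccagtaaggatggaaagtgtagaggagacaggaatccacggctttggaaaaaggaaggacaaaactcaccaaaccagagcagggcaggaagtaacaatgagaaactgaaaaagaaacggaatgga
The first BMF window held 2 GC boxes, its second start site none, and neither held the other motifs. The BBC3 window held 1 CACGTG and no GC box. Windows were found for 8 of the members, BIK and MCL1 being named only. BAX held 4 CACGTG sites, 2 of the BID windows held 1 each, and BCL2L11 held 1 GTAAACA. Over all 35116 windows of this length 45% held GGGCGG, 7.26% CACGTG and 3.42% GTAAACA. A match is a description of the letters and not of binding.

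By the distance between pairs of folds (SiHa, MS751), among the 9939 genes listed in both lines with a mean of at least 5 CPM in each, the gene nearest to BMF was AFF1, a scaffold of the super elongation complex. AFF1 had 1195 and 271 counts in SiHa (siControl first) and 602 and 121 in MS751, log2 folds of -2.26 and -2.45, at a distance of 0.490. It was the 1 gene within 0.5 of BMF. The next were BLOC1S6 (log2 folds -2.15 and -2.10), MIEF2 (-2.04 and -2.68), PLA2G15 (-2.03 and -1.70) and CRABP2 (-1.97 and -1.70). BBC3 had 70 genes within 0.5, the nearest being HES4 (-0.73 and -1.93), FAM229A, ATP6V1C2, ATG16L2 and COL27A1. HES4 moved to -0.25 and -0.93 with the GC trend removed, against -0.50 and -1.46 for BBC3.

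Other genes of the pathway were counted in 5 further lists. Over all genes, 3.05% were at least 2-fold lower and 1.46% higher in SiHa, and 8.55% and 3.74% in MS751. The lists were chosen with earlier results known, so nothing is read from their counts past 2-fold. Of 19 other genes of the BCL2 family and its relatives 14 were listed in each line. None was past 2-fold in SiHa, and in MS751 1 was higher (BCL2L2) and 1 lower (BNIP3L). BCL2L2, which encodes the guardian BCL-w, had 95 and 334 counts in MS751 (log2 fold 1.66) and 527 and 591 in SiHa, and its exons overlap the read-through gene BCL2L2-PABPN1. BNIP3L, a mitophagy receptor, had 4834 and 2200 counts in MS751 (log2 fold -1.28) and a log2 fold of -0.029 in SiHa. BCL2 itself was listed in MS751 alone, with 158 and 169 counts, and BCL2A1 in neither line. BAD, a BH3-only protein held by 14-3-3 proteins, had 998 and 741 counts in SiHa (log2 fold -0.55) and 609 and 1020 in MS751 (log2 fold 0.60, or 1.16 and so past 2-fold with the GC trend removed). The list medians were -0.09 in SiHa and -0.12 in MS751.

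Downstream of the mitochondria, 18 of 18 genes of the apoptosome and the caspases were listed in both lines. In SiHa 1 was past 2-fold higher, CASP10, an initiator caspase of death receptors, with 108 and 287 counts (log2 fold 1.28). In MS751 1 was past it, DFFB, the nuclease of apoptotic DNA cleavage, with 25 and 103 counts (log2 fold 1.86). The list median was -0.0031 in SiHa and 0.33 in MS751. In MS751 13 counting intervals lay above 0 and 3 below, beside 36.4% and 36.1% of all genes, and this count was not tested. CYCS, cytochrome c, had log2 folds of 0.14 in SiHa and 0.73 in MS751.

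Of 11 inhibitors of apoptosis proteins and their antagonists 9 were listed in SiHa and 10 in MS751. Past 2-fold in SiHa was XAF1, an interferon-inducible antagonist of XIAP, with 559 and 218 counts (log2 fold -1.48). In MS751 3 were lower and none higher, beside 8.55% and 3.74% of all genes. XIAP, an inhibitor of caspases, had 485 and 119 counts in MS751 (log2 fold -2.16, 95% counting interval -2.47 to -1.88) and 136 and 188 in SiHa (log2 fold 0.34, 95% counting interval 0.018 to 0.67). NAIP had 71 and 24 counts and SEPTIN4 168 and 60 in MS751 (log2 folds -1.67 and -1.61), and NAIP has near-identical copies between which its reads may be split. The list medians were -0.11 in SiHa and 0.17 in MS751.

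Of 16 death receptors, ligands and adaptors, 15 were listed in SiHa with none past 2-fold and 14 in MS751 with 2 lower, TNFRSF25 (log2 fold -1.53) and the decoy receptor gene TNFRSF10C (log2 fold -1.17). Over all MS751 genes 8.55% were at least 2-fold lower. Exons of TNFRSF25 overlap ESPN. FAS had 669 and 437 counts in SiHa (log2 fold -0.74) and 171 and 377 in MS751 (log2 fold 0.99), and its exons overlap ACTA2. The list medians were -0.09 and -0.0014. The 17 regulators and partners of BH3-only proteins had 16 listed in each line and none past 2-fold, with medians of 0.011 and 0.042. Among them DYNLL2, the light chain that tethers BMF, had log2 folds of 0.41 and 0.50, and FOXO3, a forkhead factor known to drive BH3-only genes, -0.11 in SiHa and -0.88 in MS751. BAD, DYNLL2, FOXO3, CYCS, FAS and BCL2 were named after their values were seen.

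**Figure D5:**
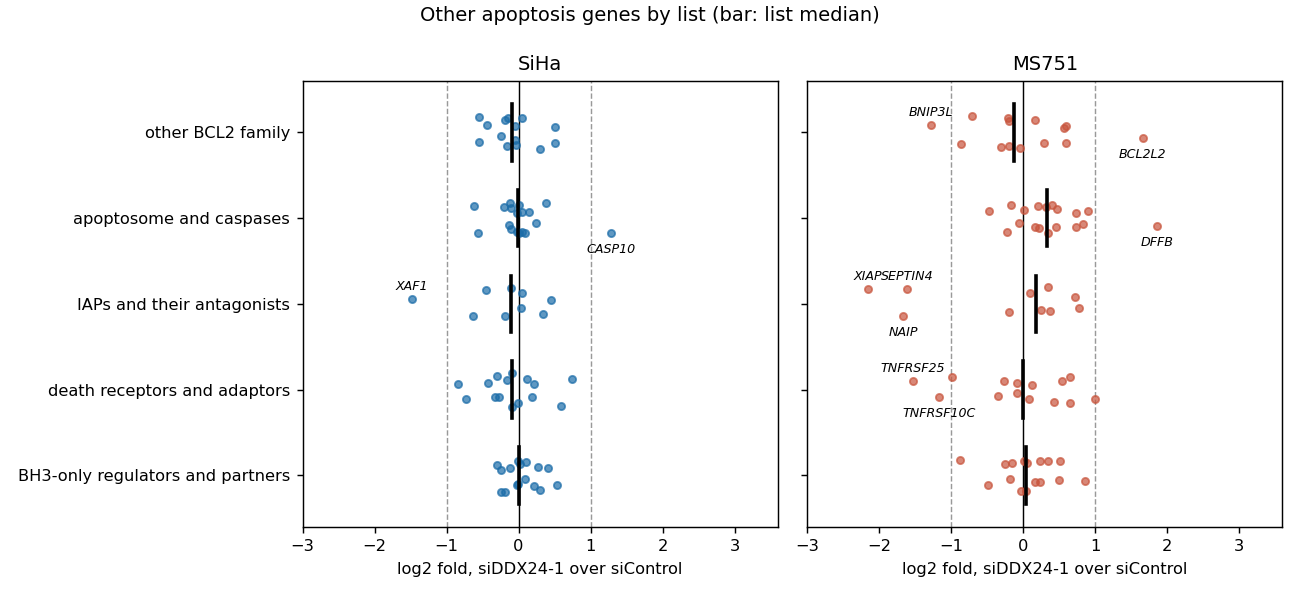
Log2 fold (siDDX24-1 over siControl) of each listed gene of 5 further apoptosis lists in SiHa and MS751, with list medians as black bars and dashed lines at 2-fold. Genes past 2-fold carry their names, XIAP lowest at -2.16 in MS751, and the median of the apoptosome and caspase list lies at 0.33 in MS751.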

How the data were processed

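RNA-seq counts of 4 libraries were analysed, 1 each for siControl and siDDX24-1 in SiHa and MS751. The authors deposited raw counts (whole numbers) for each Ensembl gene in 1 table per line. Tools named per the submitters' processing notes, without their roles, are HISAT2 2.0.4, StringTie 1.3.4d and fastp 0.23.2, with the build GRCh38.p12 (hg38). The read counter and its use of strand were not given in the sources used here. Repeated identifiers with identical values were counted once. Positions, exon lengths, transcript sequences and GC content came from GENCODE 29 and start-site windows from RefSeq (GRCh38.p14).

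Log2 folds are differences of log2 CPM (edgeR 4.0.16 in R 4.3.3, TMM factors within a line, prior count of 1) for genes whose mean reached 1 CPM. Past 2-fold means an absolute log2 fold of at least 1. Intervals are exact conditional (Clopper-Pearson) 95% intervals of count ratios. They cover counting error only, and PCR copies are not independent molecules. Lines were compared with edgeR's quasi-likelihood test with treatment as a block, leaving 1 residual degree of freedom per gene, and the SE is the absolute difference divided by the square root of F. Alternatives used other scalings, prior counts and filters, GC trend removal (mgcv 1.9.3), DESeq2 1.42.0 and limma 3.58.1. Functions were tested on simulated counts.

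The members and lists were chosen with earlier results of these data known. Named were all members, up to 5 genes per further list and line past 2-fold, the 5 genes nearest to BMF and to BBC3 by their pair of folds, and DDX24. A list chosen with the others and some single genes are not reported here.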

Additional observations from a re-analysis of the deposited data

Results flagged for a closer look

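Of 80 family members and genes of the 5 further lists that were listed in both lines, 14 had folds of opposite sign in SiHa and MS751 with both counting intervals off 0, beside 12.2% of the 11112 shared genes. None of the 14 was among the 10 members. Each line had 1 library per group, so the difference between lines was not tested, and 4 of the genes named in the text are among the 14. XIAP was higher in the SiHa knockdown library and lower in that of MS751, a difference of log2 folds (SiHa minus MS751) of 2.50. Its SiHa counting interval starts at 0.018, just above 0. The SiHa fold of 0.34 became 0.28 with library totals and 0.20 with the GC trend removed, so this flag depends on the processing. DFFB was lower in SiHa (log2 fold -0.62) and higher in MS751 (1.86), a difference of -2.48 that rests on 25 counts in MS751 siControl. FAS was lower in SiHa and higher in MS751, a difference of -1.73. BAD was lower in SiHa and higher in MS751, a difference of -1.15.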

How the results depend on the processing

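No paired analysis was possible because each group held 1 library and the labels give no replicate numbers; the comparison of lines had treatment, not a replicate, as its block. The count of members past 2-fold lower stayed at 1 in SiHa under 8 alternatives, and in MS751 it was 2 under 7 alternatives and 3 with the GC trend removed, when PMAIP1 joined. The BMF fold lay between -2.81 and -2.57 in SiHa and between -2.45 and -2.29 in MS751 over 8 alternatives each. Of the named genes' folds, 22 moved outside their counting intervals, 20 of them with the GC trend removed and 2 with library totals, and 563 did not. The filter settings were applied after scaling and could not change any fold, that of BMF included. Their folds are among the 563 and say nothing of stability. In the comparison of lines, the fit without a treatment block called 3 members in place of 6 (BMF counted) and 2681 genes in place of 3941. The others called 4 to 6 members and 3620 to 4055 genes. No fold past 2-fold and no difference between lines changed its sign. Leaving out a library leaves no residual degree of freedom in the comparison of lines and no fold within a line. At 26 counts for BMF in the SiHa knockdown library, depth limits the fold to the width of its counting interval.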
